A study of Saccharomyces cerevisiae with 10 samples.

Results

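MA-A4 and MA-A8 are 2 of 5 mutation accumulation lines of the budding yeast Saccharomyces cerevisiae whose messenger RNA levels were compared on dual-colour arrays, the others being MA-A0, MA-A1 and MA-A3. Every pair of lines shared 1 array, which made 10 arrays, with total RNA of one line carrying Cy5 and that of the other carrying Cy3 through the Genisphere 3DNA system. The difference between MA-A4 and MA-A8 rests on 7 of the 10 arrays, chosen because they hold at least one of the 2 lines. The direct array held both lines, with MA-A4 in Cy5. The other 6 paired MA-A4 or MA-A8 with MA-A0, MA-A1 or MA-A3, and together they link the pair along 3 indirect routes. The remaining 3 arrays, among MA-A0, MA-A1 and MA-A3, entered the fit through the dye term and the error. The labels give no ancestor of the lines, no number of generations, no medium and no mating type, so a difference does not show which line of the pair had changed. Nothing in them says if the 4 samplings of each line were separate cultures, so errors and p-values measure the spread between hybridisations, which may be technical.

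In a mutation accumulation experiment a strain is carried through repeated population bottlenecks, so that new mutations persist with little selection against them. Yeast adjusts its transcriptome through regulons, sets of genes under a shared transcription factor, such as the iron regulon under Aft1, the sulphur amino acid genes under Met4 and the phosphate genes under Pho4. Genes near chromosome ends form another class: many belong to families of near-identical copies and are subject to silencing by the Sir proteins. The genes below are ordered by these roles.

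All differences are MA-A4 minus MA-A8 in log2 units, so a positive value means a higher transcript level in MA-A4. The base of the logarithm and the direction (Cy5 over Cy3) are not stated by the authors. Base 2 was assumed, and the direction is the likely one because each array names its Cy5 line before its Cy3 line. With the opposite reading every sign would turn. Each array was centred on its median, probe rows of one gene were averaged, and a linear model of the Cy5 line minus the Cy3 line plus a dye effect was fitted per gene with limma over all 10 arrays. For a gene with values on every array, the fitted difference equals 0.4 times the direct array plus 0.2 times each indirect route. Values given by route are sums of centred ratios without a dye correction. The direct array carries the dye effect, and the MA-A1 route carries it on both of its arrays with the opposite sign. In the MA-A0 and MA-A3 routes, and in the fitted difference, the dye effect cancels. A gene is called where the Benjamini-Hochberg adjusted p of limma's moderated test over all genes is under 0.05. Standard errors (SE) come from the same fit.

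Of 7744 probe rows, 872 were empty on every array, and 6341 to 6815 rows had a value on each of the 7 arrays. The test covered 5415 genes, each measured on 8 or more arrays, 5197 of them with values on all 7. The median difference of all genes was 0.03, and the median SE of a gene was 0.13. Precision is limited by the number of arrays. The arrays were not equally spread: the SD of centred values was 0.25 on the direct array and 0.52 on MA-A4 against MA-A3, where 39 genes lay beyond 2 in size, compared with 18 genes on MA-A8 against MA-A3, 8 on MA-A0 against MA-A4 and 0 on the direct array. None of the mating-type markers tested passed the threshold given above. The largest difference among them was 0.55 for MFA2, a gene of the a pheromone, with an adjusted p of 0.0973. AFB1, outside these markers, was called higher in MA-A8, at -0.59 ± 0.12 (adjusted p = 0.0237).

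The pair differed in 112 genes, or 2.07% of those tested. Of these, 42 genes (0.776%) were higher in MA-A4 and 70 (1.29%) were higher in MA-A8. These shares are the background for all counts of called list members below. The lists were chosen with earlier results of these data known. At an unadjusted p under 0.05, 842 genes (15.5%) would pass. The called differences were modest, with a median size of 0.67 and a smallest of 0.48, and only 5 genes higher in MA-A4 and 8 higher in MA-A8 exceeded 1. The genes furthest apart were the siderophore-iron mannoprotein genes FIT3 and FIT2 on the MA-A8 side, and the stress gene HSP12 and the sulphur assimilation gene MET17 on the MA-A4 side. The count depended on how the errors were estimated. With each gene's own variance alone 0 genes passed (738 at an unadjusted p under 0.05), and without centring of the arrays 5 did. It also depended on single arrays: 13 genes passed when the direct array was left out. Leaving out MA-A8 against MA-A1 gave 18, and leaving out MA-A1 against MA-A4 gave 30. The count was 68 when MA-A3 against MA-A1 was dropped and 69 when MA-A4 against MA-A3 was. It rose to 179 when the array MA-A0 against MA-A8 was dropped. Among the genes named below, MET17, GPH1, MUP1, PHM8, FIT3, BNA5, SNZ3, EST3 and GAL10 kept their call whichever array was left out. MET2, AIM2 and RPS9A kept theirs in 1 of the 10 cases. The RNA came from cells in bulk, so a difference in every cell and a difference in a share of the cells cannot be told apart.

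**Figure D1:**
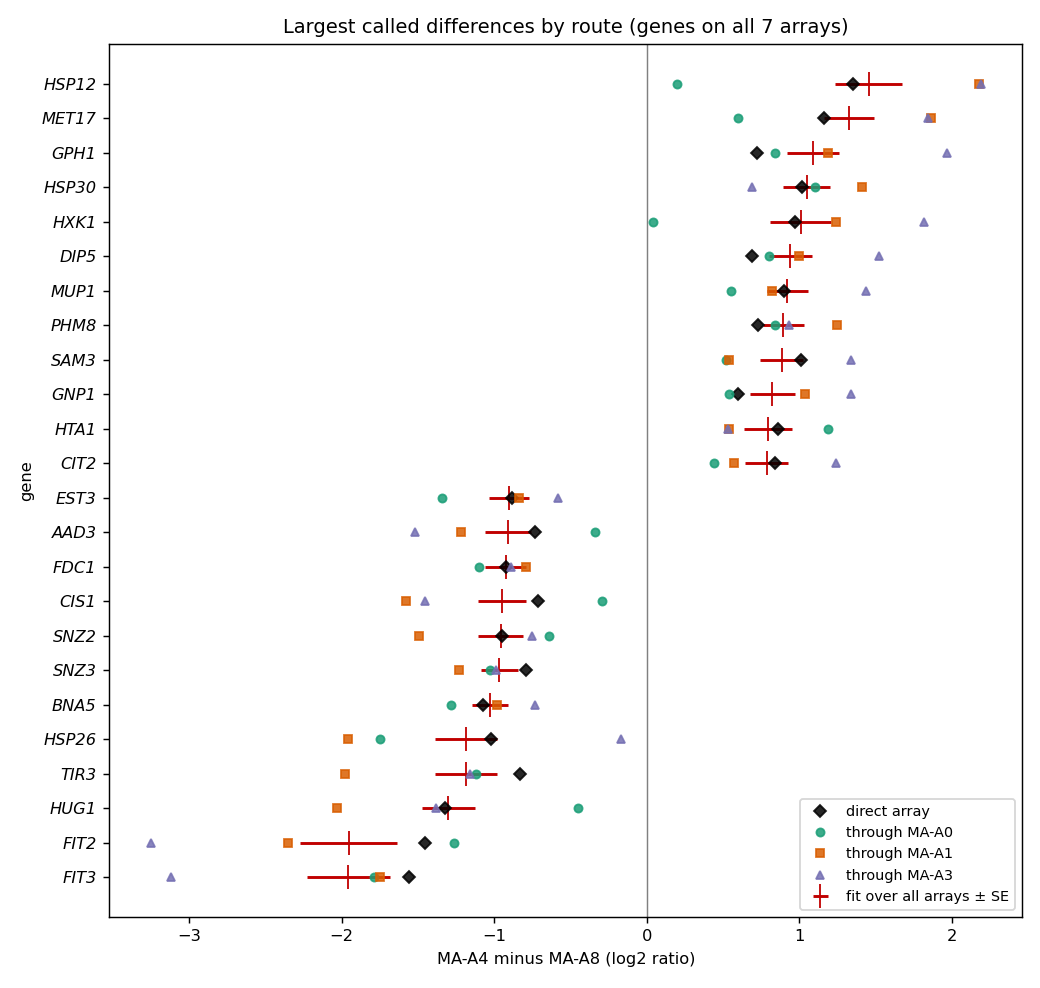
The 12 genes with the largest called difference in each direction among genes with values on all 7 arrays, with the difference MA-A4 minus MA-A8 (log2 ratio) on the horizontal axis and the genes on the vertical axis. Symbols give the direct array and the 3 indirect routes, and the vertical tick with its bar gives the fitted difference ± SE. All 4 routes lie on the same side of 0 for each of these genes, and HXK1 through MA-A0 lies closest to 0, at 0.04.

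Of 50 stress and storage carbohydrate genes tested, 6 were called higher in MA-A4 and 1 higher in MA-A8, and 43 were not called. The called share was 14%, against 2.07% of all genes. HSP12 encodes a small membrane-associated stress protein. Its centred log2 ratio was 1.35 on the direct array. On the MA-A0 arrays it was 1.31 for MA-A0 over MA-A4 and 1.51 for MA-A0 over MA-A8, a difference of only 0.20 by that route. It was -0.33 for MA-A1 over MA-A4 and -1.85 for MA-A8 over MA-A1. Against MA-A3 the ratios were -2.05 for MA-A4 and -4.24 for MA-A8. MA-A8 thus read below every other line, MA-A4 read below MA-A0 and MA-A3 but above MA-A1, and MA-A8 was the lower of the pair by every route. The fitted difference was 1.45 ± 0.22 (SE), or 2.74-fold in base 2 (adjusted p = 0.00387). It was no longer called without the direct array (1.46, adjusted p = 0.058) or when the array MA-A0 against MA-A8 was turned in sign (0.85, adjusted p = 0.49).

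GPH1, which encodes glycogen phosphorylase, was higher in MA-A4 by 1.09 ± 0.17, with 0.72 on the direct array and 0.84, 1.19 and 1.97 through MA-A0, MA-A1 and MA-A3 (adjusted p = 0.00537). HXK1, a hexokinase gene that rises when glucose is short, differed by 1.01 ± 0.20. Its value was 0.97 on the direct array, 0.04 through MA-A0, 1.24 through MA-A1 and 1.82 through MA-A3. The MA-A0 route was the lowest of the 4 for HXK1, as for HSP12. PGM2, for phosphoglucomutase, was higher by 0.74 ± 0.16. GSY1 (glycogen synthase) and GLC3 (the glycogen branching enzyme) were the other called members, at 0.63 and 0.61. The member called higher in MA-A8 was the small heat shock protein gene HSP26. The median of the list was 0.19 against 0.03 over all genes. By route it was 0.21 on the direct array, -0.06 through MA-A0, 0.12 through MA-A1 and 0.69 through MA-A3, so no direction was assigned to the list. Uncalled members included the trehalose synthesis genes TSL1 (0.79, adjusted p = 0.0522) and TPS1 (0.72, adjusted p = 0.299). The routes of TPS1 disagreed when MA-A0 against MA-A8 was left out. Its direct minus indirect gap was then -2.47 ± 0.51 (adjusted p = 0.0273 with limma, a test described below). Over the alternatives run, the list held between 0 and 12 genes called higher in MA-A4. The 0 came with MA-A0 against MA-A8 turned in sign, and the 12 when MA-A0 against MA-A4 was left out.

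Chaperone genes ran the other way from the storage genes by their median. Among 32 heat shock chaperone genes tested, 3 had a positive difference and the median was -0.25, but only HSP26 was called on that side. HSP26 was lower in MA-A4 by 1.18 (-1.18 ± 0.20, adjusted p = 0.00794), with -1.02 on the direct array, -1.75 through MA-A0, -1.96 through MA-A1 and -0.17 through MA-A3. The list's median was 0.02 on the direct array, -0.75 through MA-A0, -0.59 through MA-A1 and 0.01 through MA-A3. Without a dye correction, only 2 of the 4 routes thus gave a negative median. HSP30, a plasma membrane protein that restrains the proton pump Pma1, was higher in MA-A4 by 1.05 ± 0.15 (adjusted p = 0.00387). Its 4 routes lay between 0.69 and 1.41.

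Of 24 sulphur amino acid genes tested, 4 were called higher in MA-A4, none higher in MA-A8, and 20 were not called. The called share was 16.7%, against 2.07% of all genes. MET17 encodes the enzyme that fixes sulphide into homocysteine. Its ratio was 1.16 on the direct array. MA-A4 exceeded MA-A0, MA-A1 and MA-A3 on each of their shared arrays, with log2 ratios of -1.21 for MA-A0 over MA-A4, -1.82 for MA-A1 over MA-A4 and 1.27 for MA-A4 over MA-A3. MA-A8 gave -0.61 for MA-A0 over MA-A8, -0.04 for MA-A8 over MA-A1 and -0.57 for MA-A8 over MA-A3. The fitted difference was 1.32 ± 0.16 (adjusted p = 0.00204), or 2.50-fold in base 2, and it stayed between 1.22 and 1.51 when each array was left out in turn. MUP1, the high-affinity methionine permease gene, was higher by 0.92 ± 0.14, with 0.90 on the direct array and 0.55, 0.82 and 1.44 by the indirect routes. SAM2, for S-adenosylmethionine synthetase, was higher by 0.62 ± 0.13, and MET2, for homoserine O-acetyltransferase, by 0.55 ± 0.13. All 24 together had a median of 0.18, and the 4 routes each gave a positive median (0.20, 0.42, 0.20 and 0.20). The number of called members ranged over the alternatives run from 1 without centring to 6, with centring by blocks of probe rows or without MA-A0 against MA-A4. SAM3, the S-adenosylmethionine permease gene, is outside that list and was higher in MA-A4 by 0.88 ± 0.14.

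The list of nitrogen-regulated and permease genes held 31 tested members, of which 6 were called higher in MA-A4 and none higher in MA-A8. The called share was 19.4%, against 2.07% of all genes. DIP5, for the glutamate and aspartate permease, was higher by 0.94 ± 0.14 (adjusted p = 0.00387), with 0.69 on the direct array and 0.80 to 1.52 by the indirect routes. GNP1, for the glutamine permease, was higher by 0.82 ± 0.15. BAP2, for a branched-chain amino acid permease, was higher by 0.73 ± 0.14, with only 0.20 through MA-A0 against 0.81 to 0.91 by the other 3 routes. MUP1 is counted here too. The remaining called members were BAP3, a second branched-chain permease gene, at 0.68, and LYP1, for the lysine permease, at 0.55. Of the uncalled permease genes, AGP1 stood at 0.47 (adjusted p = 0.0543) and CAN1, for the arginine permease, at 0.47 (adjusted p = 0.188). Over the 31 genes the median was 0.20, and it was 0.37 from the indirect routes alone, where 1 member was called. Without centring 0 were, and 2 were when either MA-A1 against MA-A4 or MA-A8 against MA-A1 was left out.

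Gcn4 is the activator of amino acid synthesis genes. Of 58 such genes tested, none was called higher in MA-A4 and 2 were called higher in MA-A8, with a median of -0.03. The called share, 3.45%, was near the 2.07% of all genes, so the count is no result about the list. Both called genes are lysine synthesis genes of chromosome IX: LYS1 at -0.73 ± 0.14 and LYS12 at -0.60 ± 0.11. Their difference lay beyond the median of that chromosome, -0.28, which is described below. Neither was called when MA-A1 against MA-A4, the direct array or MA-A8 against MA-A1 was left out, nor without the dye term or without centring.

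Phosphate genes showed 2 called members of 22 tested (9.09%, against 2.07% of all genes), both higher in MA-A4, with a list median of 0.21. PHM8, which encodes a phosphatase induced on phosphate limitation, was higher by 0.90 ± 0.13, with 4 routes between 0.73 and 1.25 (adjusted p = 0.00387). PHO89, for a sodium-coupled phosphate transporter, was higher by 0.70 ± 0.16, with 1.07 on the direct array and 1.02 through MA-A1 but 0.19 and 0.13 through MA-A0 and MA-A3. It fell to 0.37 without the direct array (adjusted p = 0.354), and its call was kept in 4 of the 10 fits that left out an array. The main transporter gene PHO84 stood at 0.50 (adjusted p = 0.0522).

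Respiratory genes differed little one by one. Among 40 oxidative phosphorylation genes tested, 34 had a positive difference and the median was 0.18, but only NDE1, for an external NADH dehydrogenase, and CYT1, for cytochrome c1, were called, at 0.63 ± 0.15 and 0.62 ± 0.14. The list's median was 0.61 through MA-A3 and 0.18 on the direct array, and -0.23 and -0.04 through MA-A0 and MA-A1. It fell to 0.08 when MA-A4 against MA-A3 was left out. CIT2, for the peroxisomal citrate synthase, was higher in MA-A4 by 0.79 ± 0.14, and ICL2, for mitochondrial 2-methylisocitrate lyase, was lower in MA-A4 (-0.76 ± 0.14). They were the only called members of 23 genes of the tricarboxylic acid and glyoxylate cycles. HXT2, a glucose transporter gene, was higher by 0.69 ± 0.16, the only called gene of 28 for hexose transport and glucose sensing. HXT12, on chromosome IX and outside that list, was called higher in MA-A8, at -0.60 ± 0.12 (adjusted p = 0.0246).

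The iron regulon held the largest differences of the pair and did not move as a block. FIT2 and FIT3 encode cell wall mannoproteins that hold siderophore-bound iron, and they are neighbours on chromosome XV. The FIT3 ratio was -1.56 on the direct array. Against MA-A0 it was 0.41 for MA-A0 over MA-A4 and -1.38 for MA-A0 over MA-A8. Against MA-A1 it was 1.33 for MA-A1 over MA-A4 and 0.42 for MA-A8 over MA-A1. Against MA-A3 it was -0.20 for MA-A4 and 2.92 for MA-A8. MA-A8 thus read higher than each of the other 4 lines, by 0.42 over MA-A1 and by 1.38 or more over the rest. The fitted difference was -1.96 ± 0.27 (adjusted p = 0.00387), 3.88-fold higher in MA-A8 in base 2. FIT2 gave -1.95 ± 0.32 (adjusted p = 0.00736), with -1.45 on the direct array and -1.26, -2.35 and -3.25 by the indirect routes. ARN1, for a siderophore transporter, was the third called member higher in MA-A8, at -0.56, and its relative ARN2 stood at -1.02 without being called (adjusted p = 0.0507). On the other side, VHT1, for the biotin transporter, and ISU1, for the iron-sulphur scaffold protein, were higher in MA-A4 by 0.67 ± 0.11 and 0.61 ± 0.13. The other 23 of 28 tested members were not called, among them FTR1, for the high-affinity iron permease, at 0.37 (adjusted p = 0.249) and FIT1 at -0.45 (adjusted p = 0.363). The list's median was 0.07, and 17.9% of its tested members were called, against 2.07% of all genes. None of its members was called higher in MA-A8 with MA-A0 against MA-A8 turned in sign, and 1 was when MA-A8 against MA-A1 was left out.

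**Figure D2:**
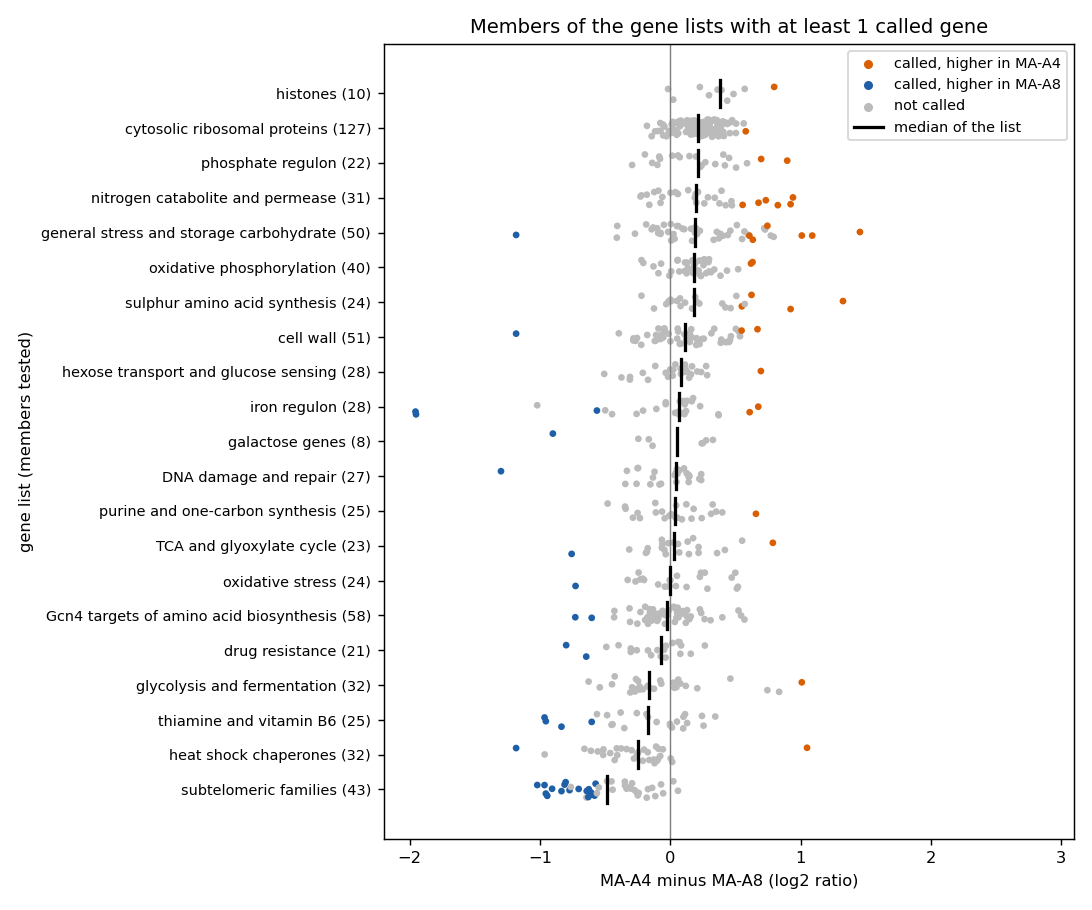
Differences MA-A4 minus MA-A8 (log2 ratio, horizontal axis) of the tested members of each gene list with at least 1 called gene, with the number tested in brackets. Coloured points are called genes and black bars are list medians. The subtelomeric families have the lowest median, -0.49, and the iron regulon spans from -1.96 to 0.67.

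Members of subtelomeric gene families made up the largest listed group higher in MA-A8. Of 43 tested, 17 were called higher in MA-A8 (39.5%, against 1.29% of all genes). None was called higher in MA-A4, and only 2 had a positive difference. The list's median was -0.49, with -0.52 on the direct array and -0.32, -0.74 and -0.58 through MA-A0, MA-A1 and MA-A3. The members share much of their sequence, so a probe can bind transcripts of several copies and the copies cannot be told apart here. The calls are thus not separate observations. Over the alternatives run, the median stayed between -0.56 and -0.45, but the number called in this direction ranged from 0 without centring, and 1 without the direct array, to 23 without MA-A0 against MA-A8. Dropping MA-A8 against MA-A1 left 3, dropping MA-A1 against MA-A4 left 6, and dropping the dye term left 7.

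By family, 5 of 11 COS genes were called, with COS12 at -1.02 ± 0.21, although this gene has no value on 1 of the 7 arrays and so no route through MA-A0. The COS proteins take part in sorting membrane proteins to the vacuole. The AAD genes, for putative aryl-alcohol dehydrogenases, gave 3 calls of 6. AAD3 was lower in MA-A4 at -0.91 ± 0.15, with -0.73 on the direct array and -0.34, -1.22 and -1.52 by the indirect routes, and AAD15 stood at -0.95 ± 0.19, again without the MA-A0 route. Of 6 listed YRF1 genes, which encode helicases of the Y' telomeric element, 4 were called, and the 6 differences lay between -0.80 and -0.63. SOR1, for sorbitol dehydrogenase, was called at -0.81. All 4 SNZ and SNO genes on the list were called. The THI5 family of thiamine precursor synthesis had differences from -0.56 to -0.44 and no call among 4 genes.

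SNZ3 and SNO3 are neighbours on chromosome VI, and SNZ2 and SNO2 are neighbours on chromosome XIV. They are copies of the genes for the 2 subunits of pyridoxal phosphate synthase and are expressed when thiamine is short. SNZ3 was lower in MA-A4 at -0.97 ± 0.12 (adjusted p = 0.00204), with -0.79 on the direct array and -1.03, -1.23 and -0.99 by the indirect routes. SNZ2 stood at -0.96 ± 0.15, SNO2 at -0.84 ± 0.14 and SNO3 at -0.60 ± 0.14. These were the only calls among 25 thiamine and vitamin B6 genes, whose median was -0.17, and they are the same 4 genes counted among the subtelomeric families. Their number was 1 without the direct array and 0 without centring.

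The position of the called genes on the chromosomes was then tallied, with the window chosen after the values were seen and therefore with no test. Among the 20 outermost annotated genes at each chromosome end, 548 were tested and 39 were called higher in MA-A8 (7.12%). Among the other 4867 genes, 31 were (0.637%). The end genes include the 17 called members of the subtelomeric families, whose calls are not separate observations. The median difference was -0.06 at the ends and 0.04 elsewhere. By route the median at the ends was -0.09 on the direct array, and 0.04, -0.12 and -0.125 through MA-A0, MA-A1 and MA-A3. Without chromosome IX these counts were 36 and 20. Genes higher in MA-A4 numbered 6 at the ends (1.09%) and 36 elsewhere (0.74%). Without the direct array 3 of 548 end genes and 4 of the others were called higher in MA-A8. When the array MA-A8 against MA-A1 was dropped they were 5 and 4, and for MA-A1 against MA-A4 they were 13 and 8. Besides the listed members, the end genes called higher in MA-A8 included YRF1-8, a further Y' helicase gene that is likewise not a separate observation. YEL077C, YHL050C, YLL066C, YML133C and YPR204W were also among them, at -0.74 to -0.68. On MA-A0 against MA-A4 they read 0.88 to 0.91, beside 0.85 to 0.93 for the called YRF1 genes. Whether their probes bind the same transcripts was not tested, so they cannot be taken as separate observations either. FIT2 and FIT3, the neighbours FDC1 and PAD1, and BNA4 were other end genes called in this direction.

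Among genes outside these families, HUG1, a small protein gene induced by DNA damage and replication arrest, was higher in MA-A8 by 1.30 on the log2 scale (-1.30 ± 0.17, adjusted p = 0.00387). Its ratio was -1.32 on the direct array, and the routes through MA-A0, MA-A1 and MA-A3 gave -0.45, -2.03 and -1.38. It was the only called gene of 27 for DNA damage and repair (3.7%, near the 2.07% of all genes). TIR3, a cell wall mannoprotein gene of cold and low-oxygen growth, stood at -1.18 ± 0.20, with -0.83 on the direct array and -1.12, -1.98 and -1.16 by the indirect routes. BNA5, for kynureninase of NAD synthesis from tryptophan, was close in value over the routes, with -1.07 on the direct array and -1.28, -0.98 and -0.73 by the others. Its fitted difference was -1.03 ± 0.12 (adjusted p = 0.00204), between -1.09 and -0.97 when each array was left out in turn. FDC1, for ferulic acid decarboxylase, was likewise close over the routes, at -0.92 on the direct array and between -1.10 and -0.79 elsewhere, with a fitted value of -0.92 ± 0.14. EST3, for a telomerase subunit, stood at -0.90 ± 0.13 and CIS1 at -0.95 ± 0.16. GAL10, for UDP-glucose 4-epimerase, was lower in MA-A4 at -0.90 ± 0.13, while none of the other 7 galactose genes tested was called and the median of the 8 was 0.05. GTT1, for a glutathione transferase, stood at -0.73 ± 0.14, the only call of 24 oxidative stress genes.

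Of 21 drug resistance genes tested, 2 were called (9.52%, against 2.07% of all genes), both higher in MA-A8. PDR5, for the main multidrug efflux pump, stood at -0.80 ± 0.17 (adjusted p = 0.0266), with -1.03 on the direct array and -0.65, -0.56 and -0.73 by the indirect routes. RSB1, for a sphingoid base transporter of the same Pdr1-controlled network, stood at -0.65 ± 0.16. The list's median was -0.07. PDR5 went to -0.52 without the direct array (adjusted p = 0.257). No gene of the list was called when the direct array, MA-A1 against MA-A4, MA-A8 against MA-A3 or MA-A8 against MA-A1 was dropped, nor without the dye term or without centring.

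Genes of protein synthesis showed shifts that depended on the route. Among 127 cytosolic ribosomal protein genes tested, 115 had a positive difference and the median was 0.21, with a single call, RPS9A at 0.58 ± 0.14. By route the median was 0.28 on the direct array, 0.55 through MA-A0, -0.50 through MA-A1 and 0.51 through MA-A3. Turning the sign of MA-A0 against MA-A8 took it to -0.05. For 10 histone genes the median was 0.38 with 1 call, HTA1 for histone H2A at 0.80 ± 0.16. Its route medians were 0.57, 0.80, -0.38 and 0.41, and turning the same array took it to -0.02. For 32 glycolysis and fermentation genes the median was -0.16, with -0.14 on the direct array and 0.27, -0.56 and 0.38 by the indirect routes. HXK1 was the only call (3.12%, near the 2.07% of all genes), and without the direct array the median was 0.18. In these 3 lists the MA-A1 route gave a median of the opposite sign to the other indirect routes. That route carries the dye effect on both of its arrays, while the other indirect routes cancel it. How much of the opposite sign between these uncorrected routes came from dye was not tested. In the fitted difference the dye effect cancels. Because the routes differed in sign, no direction was assigned to any of the 3 lists.

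Smaller calls completed the lists. Among 51 cell wall genes, PIR1 and SRL1, for wall mannoproteins, were higher in MA-A4 at 0.67 ± 0.16 and 0.55 ± 0.13, and TIR3 was the call on the other side. HPT1, for the hypoxanthine and guanine salvage enzyme, was higher in MA-A4 at 0.66 ± 0.15, the single call of 25 purine and one-carbon genes. Without a dye correction, the direct array and the MA-A0 route gave 1.03 and 1.14, with -0.13 and 0.21 through MA-A1 and MA-A3. HPT1 was the called gene whose uncorrected routes did not share a sign. In the fit with a dye term, its direct array lay only 0.07 above the indirect routes. The lists for copper and zinc homeostasis, mitochondrial ribosomal proteins, ribosome biogenesis, proteasome, ergosterol synthesis, fatty acid and phospholipid synthesis, mating and the mitochondrial genome held no call. Their members with the largest difference were CUP1-1 (-0.60, adjusted p = 0.0829), MRPL37 (0.35, adjusted p = 0.21), UTP20 (0.47, adjusted p = 0.0894), PUP3 (0.48, adjusted p = 0.0554), ERG26 (-0.44, adjusted p = 0.116), OPI3 (-0.53, adjusted p = 0.0818), FUS1 (-0.67, adjusted p = 0.0522) and OLI1 (0.57, adjusted p = 0.578).

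Chromosomes were compared by the median difference of their genes. Chromosome IX stood apart, with a median of -0.28 over 147 genes against 0.03 for all genes, and 133 of the 147 were lower in MA-A4. The medians of the other nuclear chromosomes lay between -0.02 (chromosome I) and 0.07 (chromosome II). All 4 routes had a negative median on chromosome IX, at -0.34 for the direct array and -0.14, -0.39 and -0.25 through MA-A0, MA-A1 and MA-A3. The 4 arrays with MA-A4 gave median log2 ratios of 0.21 for MA-A0 over MA-A4, 0.29 for MA-A1 over MA-A4, -0.26 for MA-A4 over MA-A3 and -0.34 for MA-A4 over MA-A8. In each the MA-A4 side was the lower. On the 3 other arrays with MA-A8 the medians were -0.02 for MA-A0 over MA-A8, 0.09 for MA-A8 over MA-A1 and 0.02 for MA-A8 over MA-A3. Relative to the mean of MA-A0, MA-A1 and MA-A3 the chromosome's median was -0.24 in MA-A4 and 0.06 in MA-A8.

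The shift ran along the whole of chromosome IX. In bins of 15 neighbouring tested genes, with 12 in the last, every median was negative, between -0.49 and -0.18. Of the 147 genes, 13 (8.84%, against 1.29% of all genes) were called higher in MA-A8 and none higher in MA-A4. TIR3 and EST3 had the largest differences, and LYS1, LYS12 and GTT1 were among the rest. Leaving out each array in turn gave medians of the chromosome between -0.33 and -0.24, and the number of its called genes fell to 1, 2 and 3 when MA-A8 against MA-A1, the direct array or MA-A1 against MA-A4 was dropped. Without the genes of chromosome IX, the pair differed in 95 genes, 41 of them higher in MA-A4 and 54 higher in MA-A8. The called genes of chromosome I were AIM2 (-0.63 ± 0.15) and BDH1, for butanediol dehydrogenase (0.55 ± 0.13), and YKL091C on chromosome XI stood at 0.58 ± 0.13. Chromosomes XIII and XII, whose medians departed in MA-A3 and MA-A1, had medians of 0.06 and 0.04 between MA-A4 and MA-A8.

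**Figure D3:**
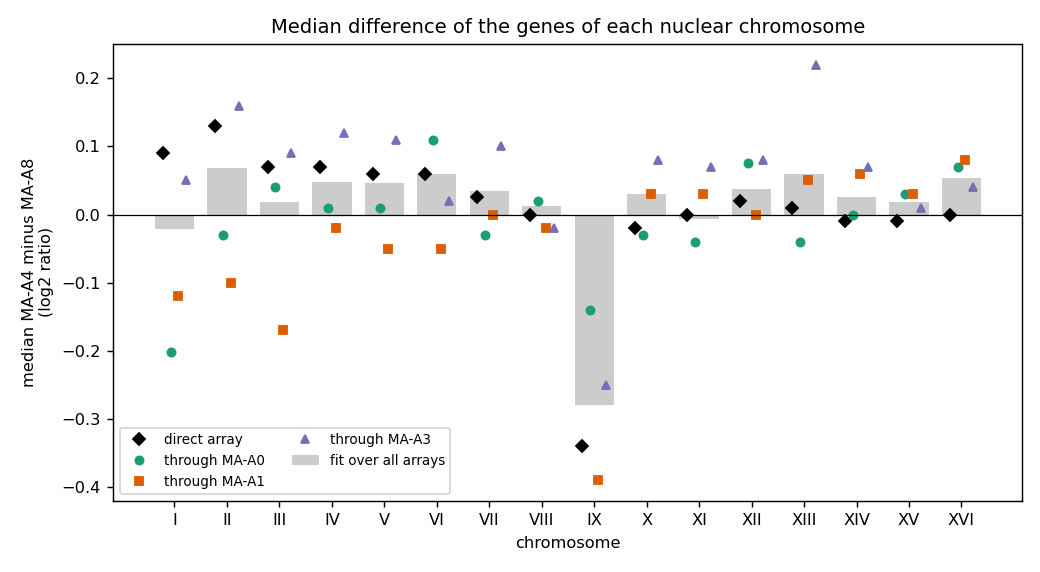
Median difference MA-A4 minus MA-A8 (log2 ratio, vertical axis) of the tested genes of each of the 16 nuclear chromosomes (horizontal axis). Bars give the fit over all arrays and symbols the 4 routes. Chromosome IX is at -0.28, and its 4 routes lie between -0.39 and -0.14, while the other bars lie between -0.02 and 0.07.

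The direct array and the indirect routes share no array, so they can be set against each other. Their values by route are not corrected for dye, which the direct array and the MA-A1 route carry with opposite signs. For CIS1 the direct array gave -0.71 and the mean of the indirect routes -1.11. The gap fitted with a dye term was -0.008. Of 108 called genes with a value by all 4 routes, 107 had the same sign in all 4, against 21.3% (1107 of 5197) of all genes. Since the fit that called these genes is built from the same routes, this is a description and not a separate support. A split that keeps the arrays apart used the fit without the direct array. That fit included the dye term, while the direct array set beside it was not corrected for dye. The fit called 13 genes, and the direct array had the same sign for 12 of them, against 60.6% for all genes. The exception was SPR2, at 1.06 by the fit without the direct array and -0.13 on it. Of the 13 genes, 11 were also called with all arrays: BNA5, EST3, FIT2, FIT3, GAL10, GPH1, MET17, MUP1, PHM8, SNZ3 and TIR3. For the 50 genes with the largest indirect difference, the direct array had the same sign for 39, and the median size was 1.06 by the indirect fit and 0.68 on the direct array in the same direction. Ranked by the direct array instead, 45 of the top 50 had the same sign by the indirect mean, with medians of 0.89 on the direct array and 0.63 by the indirect mean.

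The routes, again without a dye correction, differed in spread. Across the 5197 genes the SD was 0.24 on the direct array and 0.52, 0.39 and 0.42 through MA-A0, MA-A1 and MA-A3, each of which sums 2 arrays. Pearson's r of the direct array with the mean of the indirect routes was 0.46 across these genes, which share probes and lines and are not replicates. With the single routes it was 0.18 through MA-A0, 0.31 through MA-A1 and 0.41 through MA-A3, and between the MA-A0 and MA-A3 routes it was -0.07.

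**Figure D4:**
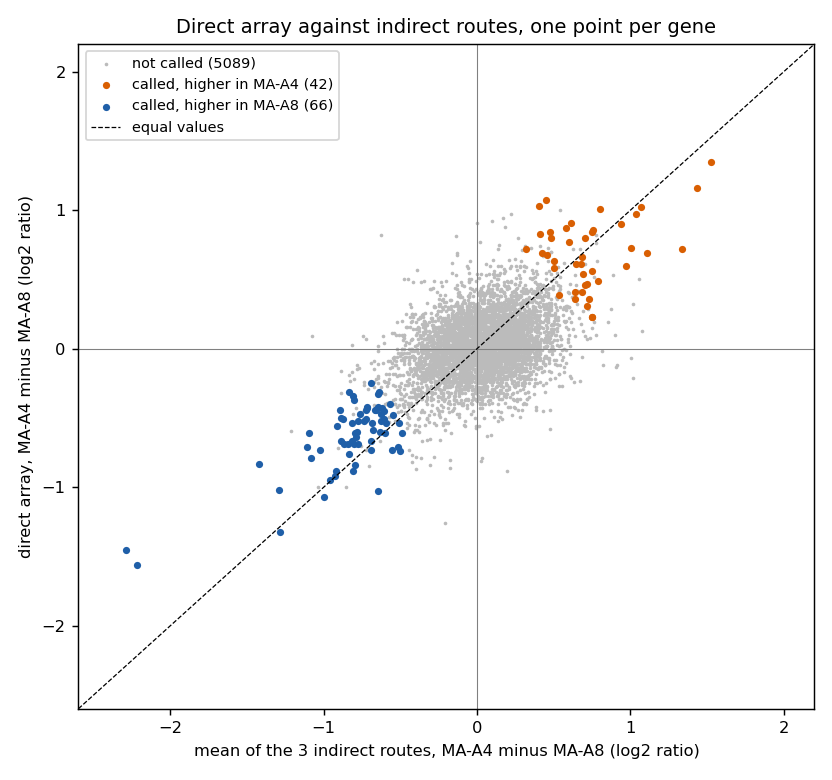
Each point is a gene with a value by all 4 routes, with the mean of the 3 indirect routes on the horizontal axis and the direct array on the vertical axis, both as MA-A4 minus MA-A8 (log2 ratio). The dashed line marks equal values, and neither axis is corrected for dye. Called genes lie in the lower left and upper right corners, FIT2 and FIT3 at the far lower left, and r across the 5197 genes is 0.46.

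A term for the direct array, added to the model, tested whether it gave a different value from the indirect routes. Of 5414 genes tested, 0 were called with limma, with a lowest adjusted p of 0.555, and 275 (5.08%) had an unadjusted p under 0.05. With each gene's own variance 0 were called and 256 had an unadjusted p under 0.05, and with a robust prior 0 and 271. The median SE of this difference was 0.30, and gaps well beyond that size went uncalled. PHO89 had a gap of 0.82 (adjusted p = 0.886) and OLI1 one of -1.46 (adjusted p = 0.93). The absence of calls therefore does not show equal values. The count changed when single arrays were left out. Without MA-A0 against MA-A8, 34 genes were called, 30 of them lower on the direct array. They included SOK2, for a transcription factor, whose ratio was 3.29 for MA-A4 over MA-A3 and 0.94 for MA-A0 over MA-A4, but -0.21 on the direct array. The mating-type genes MATALPHA1 and HMLALPHA1 were also among them, with gaps of -4.64 and -3.71. None of the 34 was called in the comparison of the pair. Without MA-A3 against MA-A1, 9 genes were called, all lower on the direct array, among them the glycolysis genes PGK1, ENO2, PDC1, FBA1 and TDH1. Both sets were named after their values were seen.

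Each line was finally set beside the mean of MA-A0, MA-A1 and MA-A3 in the same fit. The 2 contrasts share those 3 lines, so their values are given side by side only. Of the 42 genes higher in MA-A4, 11 passed in MA-A4 alone, 19 in MA-A8 alone, 2 in both and 10 in neither. Of the 70 genes higher in MA-A8, 35 passed in MA-A4 alone, 17 in MA-A8 alone, 3 in both and 15 in neither. Passing in one line and not the other does not show that the lines differ in this respect. These genes were chosen by their difference between the 2 lines, which partly fixes such counts. The share of all tested genes passing in each line is not given here, so the counts do not show which line moved.

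Some sulphur and permease genes lay above the other lines in MA-A4. MET17 was at 1.38 ± 0.13 in MA-A4 and 0.05 ± 0.13 in MA-A8, and DIP5 was at 0.87 and -0.07. SAM3 (0.84 and -0.05) and CIT2 (0.90 and 0.12) followed the same order. Several storage and stress genes, and the phosphate gene PHM8, lay below the other lines in MA-A8. GPH1 was at -0.24 ± 0.14 in MA-A4 and -1.33 ± 0.14 in MA-A8, HXK1 at -0.07 and -1.08, HSP30 at 0.21 and -0.84, and PHM8 at 0.07 and -0.83. The other called phosphate gene, PHO89, lay above the other lines in both, at 1.11 in MA-A4 and 0.42 in MA-A8, with MA-A4 passing alone. HSP12 lay below in both lines, at -1.04 ± 0.18 in MA-A4 and -2.50 ± 0.18 in MA-A8.

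Among genes higher in MA-A8, FIT3 stood at -0.51 ± 0.22 in MA-A4 and 1.44 ± 0.22 in MA-A8, and only the latter passed. PDR5 (0.02 and 0.82), RSB1 (0.02 and 0.66) and CIS1 (-0.08 and 0.87) also lay above the other lines in MA-A8. By contrast, HSP26 was at -1.59 ± 0.16 in MA-A4 and -0.41 ± 0.16 in MA-A8, AAD3 at -1.03 and -0.13, and BNA5 at -0.79 and 0.24, with MA-A4 passing alone. HUG1 (-0.55 and 0.75), SNZ3 (-0.54 and 0.43) and GAL10 (-0.43 and 0.48) passed in both lines on opposite sides.

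**Figure D5:**
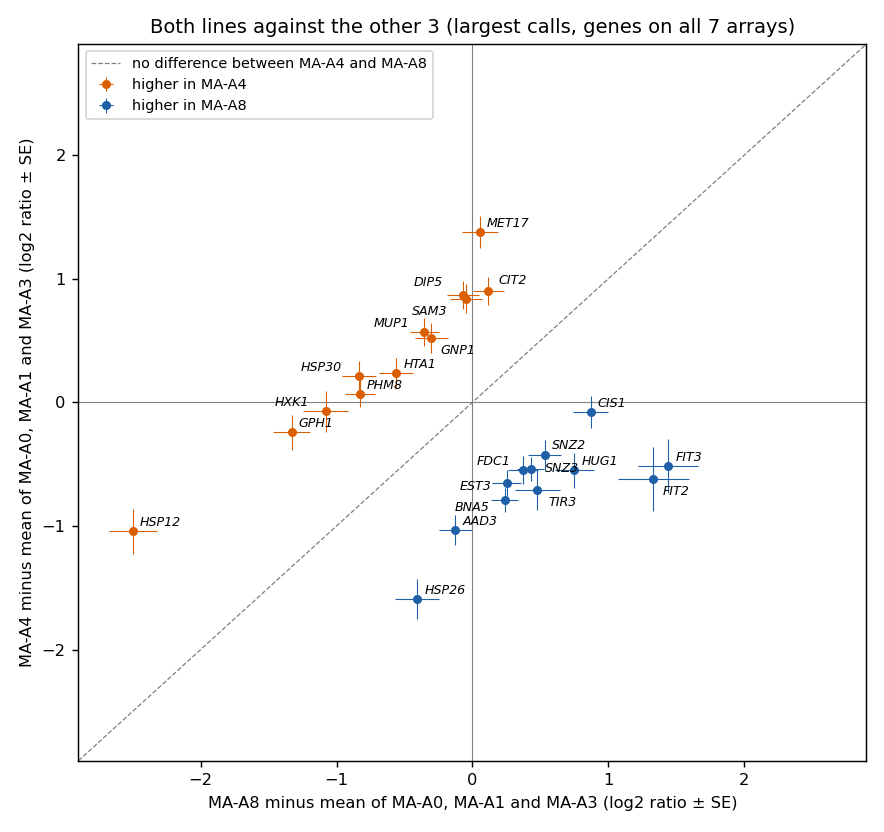
The 12 genes with the largest called difference in each direction among genes measured on all 7 arrays, with MA-A8 minus the mean of MA-A0, MA-A1 and MA-A3 on the horizontal axis and MA-A4 minus the same mean on the vertical axis (log2 ratio ± SE). The dashed line marks no difference within the pair. MET17 lies at the top, at 1.38 in MA-A4 and 0.05 in MA-A8, FIT3 at the right, at -0.51 and 1.44, and HSP12 at the left, at -1.04 and -2.50.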

How the data were processed

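The authors deposited 1 table with a value per probe row and array, with no log base or direction stated. The deposited values were read here as the log2 ratio of channel 1 (Cy5) over channel 2 (Cy3). Scanner, background correction and normalization were not given in the sources used here. Array medians ran from -0.84 to 0.41, so arrays were centred on their medians. This follows the series values, not scanner output. Of 7744 rows, 6116 had a gene name in the platform annotation and 6111 matched the R64 annotation, which was used for symbols, chromosomes and gene order only, and 1628 unnamed rows stayed out of the fit. Rows of one gene were averaged, and a gene needed values on 8 or more arrays.

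Fits used limma (version 3.58.1, on R 4.3.3) with 5 residual and 9.19 prior degrees of freedom. Each pair of lines has 1 array, so the 4 routes and the residual spread stand in for replicates. Genes were named by rule: the 12 largest called differences in each direction with values on all 7 arrays, up to 4 called members of each list (or its largest), and the largest called genes of outlying chromosomes. Other genes are those given with a list's counts or chosen after their values were seen. The members and lists were chosen with earlier results of these data known. Alternatives varied centring, the dye term, the minimum of arrays, the variance, 1 array's sign, averaging of rows, the threshold and the arrays used. No sequence was used.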

Additional observations from a re-analysis of the deposited data

How the results depend on the processing

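The number of genes differing between MA-A4 and MA-A8, 112 as reported, was 5 with the values as deposited without centring, 183 with centring within blocks of probe rows, 36 without the dye term, 0 with unmoderated variances, 66 with each probe row on its own and 27 at an adjusted p of 0.01. Leaving out each array in turn gave 13 to 179. It stayed within 1.5 times the reported number with centring outside the moved chromosomes (109), values on all 10 arrays (139), no minimum of arrays (112), a robust prior (147), the sign of MA-A0 against MA-A8 turned (81, of which 55 were called as reported) and, chosen after seeing the data, without the genes of chromosome IX (95). The direct array against the indirect routes gave 0 genes as reported and under every alternative run except leaving out single arrays, which gave 0 to 34. It could not be estimated without the direct array. Fits without an array required values on at least 7 arrays. None of the 52 called genes named by rule changed sign under any alternative run. Of them, 47 lost their call without centring, 52 without moderation, 41 without the direct array, 35 without MA-A8 against MA-A1, 30 without MA-A1 against MA-A4, 26 without the dye term and 24 with the turned sign. OLI1, not called, reversed without MA-A4 against MA-A3, and leaving out arrays gave it values from -0.0404 to 1.158. The cause of these changes was not tested. No paired analysis was possible because each pair of lines has 1 array, whose ratio already pairs the lines.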

Other observations

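A few smaller groups, put together after their values were seen and therefore not tested as groups, add to the genes on the MA-A8 side. Of 7 genes for NAD synthesis from tryptophan tested, BNA4 (-0.72 ± 0.13, adjusted p = 0.013 with limma) and BNA5 (-1.03 ± 0.12) were called higher in MA-A8. BNA1 (-0.52, adjusted p = 0.0713), BNA2 (-0.46, adjusted p = 0.09) and BNA6 (-0.40, adjusted p = 0.143) did not pass, and BNA3 and BNA7 stood at 0.12 and 0.09. PAD1, whose product makes the flavin cofactor of the decarboxylase encoded by its neighbour FDC1, was called at -0.50 ± 0.12, beside -0.92 ± 0.14 for FDC1. Of the 4 tandem ASP3 genes, for cell wall asparaginase, ASP3-1, ASP3-3 and ASP3-4 were called and all 4 lay between -0.52 and -0.45. The copies are near-identical, so these are not separate observations.

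Neighbouring genes called in the same direction formed 9 runs, each of 2 genes and each higher in MA-A8. Among them were FIT2 with FIT3, SNO3 with SNZ3, SNO2 with SNZ2 and PAD1 with FDC1. Of 817 probe rows without a gene name, tested in a fit over all rows, 1 was called (0.122%), at 0.87 ± 0.15 and higher in MA-A4. In that fit 26 of 5797 named rows were called (0.449%).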
